A study of Mus musculus with 22 samples.

Results

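The G1 cyclins and the CDK inhibitors examined here are 10 listed genes of the 24421 in the count files: the D-type cyclins Ccnd1, Ccnd2 and Ccnd3, the E-type cyclins Ccne1 and Ccne2, the CIP/KIP inhibitors Cdkn1a and Cdkn1b, and the INK4 inhibitors Cdkn2a, Cdkn2b and Cdkn2c. The members were named by symbol with earlier results of these data known, so they are not a set chosen blind to the values. All 10 passed the filter on low counts in every comparison. RNA came from mouse bladder epithelial organoids, which are epithelial cultures grown in 3 dimensions, with the genotypes ARID1A KO and ARID1A WT. Arid1a codes for a subunit of BAF, a complex that remodels chromatin. Primary urothelial organoids gave total RNA, the polysome fraction and the subpolysome fraction of a sucrose gradient, with 3 KO and 3 WT libraries of each. Isogenic bladder cancer organoids gave total RNA, with 2 libraries labelled KO and 2 labelled WT. No drug or other treatment is named for any group. How the knockout was made, which part of Arid1a it removes, the strain, sex and age of the donor animals, and whether replicates were separate cultures are not stated in the labels. P-values therefore reflect only how far these libraries vary, and that variation could be technical.

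D-type cyclins bind Cdk4 and Cdk6 and E-type cyclins bind Cdk2, and these kinases phosphorylate the retinoblastoma protein, which releases E2F factors and lets a cell pass from G1 into S phase. INK4 proteins bind Cdk4 and Cdk6 and keep D-type cyclins off them. CIP/KIP proteins inhibit cyclin E-Cdk2 and also bind cyclin D-Cdk4 complexes. Cdkn2a encodes p16Ink4a and, from another first exon and in another reading frame, p19Arf, which binds Mdm2 and so stabilises p53, and Cdkn1a is a classic p53 target. In bladder cancer, gains of Ccnd1 and losses of the Cdkn2a and Cdkn2b locus are well known. The polysome fraction holds mRNAs that carry several ribosomes, and the subpolysome fraction those with few or none.

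Libraries held 66227600 to 74605489 counts for total RNA, 64911189 to 76594655 for polysomes, 39245248 to 51628570 for subpolysomes and 48429672 to 55431426 for cancer organoids. Levels below are CPM, the usual per-library scaling of counts, adjusted by TMM factors, and 1 unscaled CPM was at least 39.2 counts. Arid1a in total RNA was at 75.2, 75.3 and 84.1 CPM in KO libraries, against 114, 131 and 117 CPM in WT libraries. It fell in KO total RNA (log2 fold change -0.60 ± 0.06, SE, adjusted p = 5.68e-06), so reads of the gene remained and the groups did not overlap. The log2 fold change was -0.48 ± 0.20 in polysomes (adjusted p = 0.0817) and 0.19 ± 0.12 in subpolysomes (adjusted p = 0.276). In the cancer set, Arid1a was at 174 and 56.3 CPM in the libraries labelled KO 1 and KO 2, and at 66.5 and 196 CPM in those labelled WT 1 and WT 2. The labels and the Arid1a levels of 2 of these 4 libraries therefore go against each other. The library labelled KO 2 also held 12 counts of the Y-linked Ddx3y, against 2578 to 3478 in the other cancer libraries, so it stands apart from its set. All 15 urothelial markers looked for, among them Krt5, Trp63 and Upk1b, reached 1 CPM in every primary group, whereas 10 and 12 did in the cancer KO and WT groups, where Upk2 and Upk3a had no count.

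The INK4 genes Cdkn2a and Cdkn2b are neighbours on mouse chromosome 4 (GRCm38, minus strand), Cdkn2a at 89274471 to 89294653 and Cdkn2b at 89306299 to 89311039, with 11645 bases between them in the GENCODE annotation. Both were lower in KO organoids, and so was Cdkn1a on chromosome 17 (29090976 to 29100727, plus strand). For these genes the 150 bases before RefSeq start sites (GRCm38.p6) are shown, 5′ to 3′ on the gene's strand, with motif matches in capitals. The downstream Cdkn1a start (29093769) is not shown, and counts per gene do not tell which start was used. RefSeq promoters were matched for 7 of the 10 members, 11 start sites in all; Ccnd1, Ccnd2 and Ccne2 were not among them. The lines give, in this order, the distal Cdkn2a start (p19Arf, chr4:89294620-89294769), the proximal Cdkn2a start (p16Ink4a, chr4:89282193-89282342), Cdkn2b (chr4:89311033-89311182) and the upstream Cdkn1a start (chr17:29090829-29090978).
Cdkn2a distal start: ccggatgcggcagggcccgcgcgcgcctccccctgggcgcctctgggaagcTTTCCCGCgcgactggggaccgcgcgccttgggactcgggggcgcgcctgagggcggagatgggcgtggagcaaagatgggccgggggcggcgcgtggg
Cdkn2a proximal start: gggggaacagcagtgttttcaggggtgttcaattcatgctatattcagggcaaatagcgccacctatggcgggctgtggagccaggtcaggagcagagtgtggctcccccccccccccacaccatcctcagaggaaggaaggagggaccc
Cdkn2b: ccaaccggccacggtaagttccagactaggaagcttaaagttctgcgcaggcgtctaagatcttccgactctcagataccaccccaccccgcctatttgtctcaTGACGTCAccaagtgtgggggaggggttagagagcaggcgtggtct
Cdkn1a upstream start: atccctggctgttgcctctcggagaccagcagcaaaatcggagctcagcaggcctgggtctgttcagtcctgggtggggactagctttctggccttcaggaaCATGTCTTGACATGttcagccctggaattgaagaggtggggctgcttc
The capitals in the distal Cdkn2a sequence are an E2F site, which begins 99 bases before the start. The E2F search used the words TTTGGCGC, TTTCCCGC, TTTGCCGC and TTTCGCGC on both strands, over the 250 bases before each start, and 1.86% of 32851 RefSeq promoters held one. In the Cdkn2b sequence the capitals are a cyclic AMP response element, TGACGTCA, which begins 46 bases before the start and occurred in 1.55% of promoters. The Cdkn1a capitals are a pair of p53 core words, searched as CATG, 6 bases of any kind and CATG on both strands, which begin 48 bases before the start; 0.490% of promoters held such a pair. The proximal Cdkn2a window held none of the words searched, which says only that these letters are not there. A Sp1 GC box, GGGGCGGGG on either strand, was present before the other listed Cdkn1a start, before Ccne1 and before both Ccnd3 starts, against 10.4% of all promoters. The Cdkn1b start and both Cdkn2c starts, of genes higher in KO total RNA, held none of the words searched. These matches describe the sequence and no binding was measured.

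Levels can be compared between genes only per length, here CPM per kb of exon in the GENCODE annotation. The length is the union of exon bases over all annotated transcripts. It was 4709 bases from 3 transcripts for Ccnd1, 9409 from 8 for Ccnd2 and 8775 from 21 for Ccnd3. A gene whose main mRNA is much shorter than its union is given too low a level per kb, so levels between genes are rough. In total RNA of primary organoids, Ccnd1 was at 209 CPM per kb in KO and 234 in WT libraries, while Ccnd2 was at 27.6 in KO and 32.5 in WT, and Ccnd3 at 7.33 in KO and 7.25 in WT. Among the inhibitors, Cdkn1a was at 87.9 CPM per kb in KO and 135 in WT libraries, Cdkn2b at 63.8 in KO and 128 in WT, and Cdkn2a at 43.0 in KO and 113 in WT. Cdkn1b, at 12.3 CPM per kb in KO and 10.5 in WT, and Cdkn2c, at 3.599 in KO and 1.61 in WT, lay below them. Ccne1 was at 2.88 CPM per kb in KO and 2.42 in WT, below Cdkn2c in KO and above it in WT, and Ccne2 was the lowest of the 10, at 0.517 in KO and 0.203 in WT. Ccne2 in total RNA rested on 152 to 190 counts per KO library and 42 to 88 per WT library, which limits its precision.

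KO organoids had less of Cdkn1a, Cdkn2a and Cdkn2b and more of Cdkn2c in total RNA, with small shifts in the D-type cyclins. In the edgeR quasi-likelihood test, 3 members were higher in KO (Ccne2, Cdkn1b and Cdkn2c), 5 were lower (Ccnd1, Ccnd2, Cdkn1a, Cdkn2a and Cdkn2b) and 2 did not pass (Ccnd3 and Ccne1). Of all 13198 genes tested, 53.2% were called, 27.0% as higher and 26.3% as lower, so 8 calls among 10 genes stand against a high background. The libraries of the 2 genotypes did not overlap for these 8 members, and 57.4% of 14662 genes showed such a gap in either direction. The median log2 fold change of the 10 members was -0.05, beside 0.0026 over all genes tested.

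Cdkn2a, the gene of p16Ink4a and p19Arf, was at 49.4, 58.5 and 43.2 CPM in KO libraries, against 126, 134 and 138 CPM in WT libraries. Every KO library was lower than every WT library, and the gene was 2.59-fold lower in KO (log2 -1.37 ± 0.09, SE, adjusted p = 1.69e-07). The 2 annotated Cdkn2a transcripts share 575 of 1172 exon bases (49.1%), and counts per gene cannot tell p16Ink4a from p19Arf. Cdkn2b, which encodes p15Ink4b, was at 81.0, 103.5 and 81.5 CPM in KO libraries, against 160.1, 187 and 188 CPM in WT libraries. It was 1.97-fold lower in KO without overlap (log2 -0.98 ± 0.09, adjusted p = 3.25e-06). Cdkn2c, which encodes p18Ink4c, went the other way. It was at 10.7, 8.45 and 9.89 CPM in KO libraries, against 4.68, 4.33 and 3.94 CPM in WT libraries, 2.28-fold higher in KO (log2 1.19 ± 0.11, adjusted p = 4.76e-06). The INK4 genes thus moved in both directions.

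Cdkn1a, which encodes p21, was at 311, 322 and 304 CPM in KO libraries, against 463, 502 and 471 CPM in WT libraries. The genotypes did not overlap, and Cdkn1a was 1.503-fold lower in KO (log2 -0.59 ± 0.04, adjusted p = 3.99e-07). Cdkn1b, which encodes p27, was at 58.4, 58.7 and 50.7 CPM in KO libraries, against 48.8, 45.6 and 49.2 CPM in WT libraries. This gap was small beside that of Cdkn1a and in the opposite direction (log2 0.25 ± 0.06, 1.19-fold higher in KO, adjusted p = 0.00579). It missed the threshold when all 18 primary libraries shared one estimate of the spread (adjusted p = 0.322).

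Ccne2 was at 2.08, 1.69 and 1.65 CPM in KO libraries, against 0.994, 0.532 and 0.598 CPM in WT libraries, 2.58-fold higher in KO without overlap (log2 1.37 ± 0.26, adjusted p = 0.000804). In the annotation 609 of its 3495 exon bases (17.4%) lie over the opposite-strand gene Ints8, and whether counting used strand is not given in the sources used here. Ints8 was at 39.7 ± 2.83 CPM in KO and 49.3 ± 1.32 CPM in WT libraries (SD, n = 3 each). Ccne1 was at 8.91, 7.67 and 6.398 CPM in KO libraries, against 6.08, 6.51 and 6.73 CPM in WT libraries. These ranges overlapped and the difference did not pass (log2 0.28, 95% interval 0.01 to 0.54, adjusted p = 0.0708), but it did without the library total KO 3 (log2 0.39, adjusted p = 0.0158).

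The D-type cyclins, which had higher levels per kb than the E-type cyclins in primary organoids, differed little. Ccnd1 was at 1027, 982 and 946 CPM in KO libraries, against 1082, 1123 and 1103 CPM in WT libraries (log2 -0.13 ± 0.04, adjusted p = 0.0141). Ccnd2 was at 264, 257 and 258 CPM in KO libraries, against 296, 323 and 298 CPM in WT libraries (log2 -0.21 ± 0.04, adjusted p = 0.00131). Both gaps were narrow but free of overlap. In the fit over all 18 primary libraries neither passed, with an adjusted p of 0.206 for Ccnd1 and 0.0708 for Ccnd2, and Ccnd1 also missed without total KO 3 (adjusted p = 0.0594). Ccnd3 was at 72.0, 59.4 and 61.4 CPM in KO libraries, against 68.3, 61.2 and 61.2 CPM in WT libraries, with full overlap and an interval of -0.12 to 0.21 on the log2 scale. The opposite-strand gene Oraov1, now LTO1, lies over 23.4% of the Ccnd1 exon bases but was at 22.1 CPM in KO and 23.4 CPM in WT libraries, far below Ccnd1. Bysl, over 4.11% of the Ccnd3 exon bases, was at 38.2 CPM in KO and 38.7 CPM in WT libraries.

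**Figure D1:**
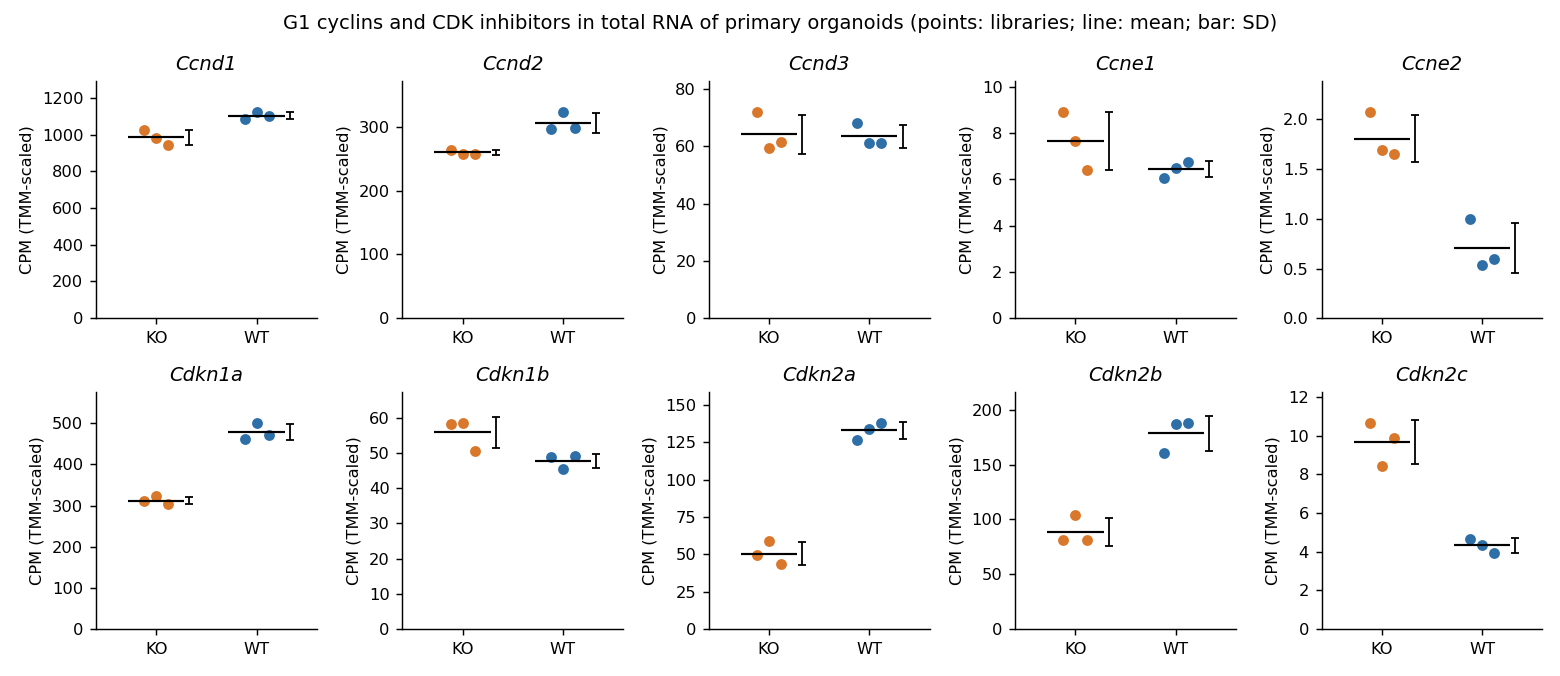
Levels of the 10 genes in total RNA of primary organoids, in TMM-scaled CPM on axes that start at 0; points are single libraries (3 KO left, 3 WT right), lines are means and bars SDs. Cdkn1a, Cdkn2a and Cdkn2b lie lower in all KO libraries, Ccne2 and Cdkn2c higher, and Ccnd3 and Ccne1 overlap.

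Other measures moved with genotype in the same libraries. Mki67, a marker of cycling cells, was at 43.5, 26.0 and 36.8 CPM in KO libraries, against 16.5, 8.56 and 8.89 CPM in WT libraries (log2 1.67 ± 0.24, adjusted p = 0.000109). The summed urothelial markers, mostly Krt5, overlapped, at 12380 to 12910 CPM in KO and 11110 to 12820 CPM in WT libraries, but single markers differed in both directions. The uroplakins looked for all averaged higher in KO: Upk1a (207 CPM in KO, 64.5 CPM in WT), Upk1b (142.5, 72.0), Upk2 (11.8, 2.56) and Upk3a (83.6, 16.6). Krt8 (297 CPM in KO, 135 CPM in WT), Pparg (70.3, 30.7), Trp63 (305, 215) and Gata3 (106, 77.8) were also higher. Krt5 (8930, 7794), Krt18 (608, 519) and Foxa1 (163, 161) were higher by less. Krt14 (1432 CPM in KO, 1927 CPM in WT), Epcam (148, 467), Cdh1 (227, 311) and Krt20 (1.25, 5.46) averaged lower. Summed immune markers were at 17.6 to 19.7 CPM in KO and 7.81 to 9.44 CPM in WT libraries, of which only Cd68 reached 1 CPM, and Ptprc had no count in either genotype. Summed smooth muscle markers were at 16.1 to 17.6 CPM in KO and 4.93 to 5.59 CPM in WT, nearly all of it Acta2, while summed fibroblast markers were at 1.34 to 1.65 CPM in KO and 2.55 to 3.53 CPM in WT. Endothelial markers summed to under 1 CPM in both genotypes and red cell genes had no count. The part of these shifts in the results above was not tested. In bulk RNA, fewer cells of a type and less RNA per cell cannot be told apart.

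The fractions gave the same directions for the members with the widest genotype gaps. In polysomes, 2 members were higher in KO (Ccne2 and Cdkn2c) and 3 lower (Cdkn1a, Cdkn2a and Cdkn2b), with 28.8% of 13066 genes called, 14.9% higher and 13.8% lower. In subpolysomes the same 5 members were called in the same directions, with 22% of 12645 genes called, 11% in each direction. The libraries did not overlap for 6 members in each fraction, beside 40.5% of genes in polysomes and 33.1% in subpolysomes; the extra member was Ccnd2 in polysomes and Ccne1, lower in KO, in subpolysomes.

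Cdkn2a in polysomes was at 104.8, 132 and 163 CPM in KO libraries, against 322, 356 and 484 CPM in WT libraries (log2 -1.51 ± 0.17, adjusted p = 4.08e-06). In subpolysomes it was at 36.6, 49.3 and 38.5 CPM in KO libraries, against 92.9, 116 and 124.9 CPM in WT libraries (log2 -1.41 ± 0.13, adjusted p = 1.15e-08). KO levels lay below all WT levels in both fractions, 2.85-fold lower in polysomes and 2.65-fold lower in subpolysomes. Cdkn2b was at 114, 122 and 138 CPM in KO polysomes, against 237, 243 and 281 CPM in WT polysomes, and at 45.3, 50.0 and 48.8 CPM in KO subpolysomes, against 91.2, 101.0 and 100.7 CPM in WT subpolysomes. Its log2 fold change was -0.996 ± 0.13 in polysomes (adjusted p = 1.51e-05) and -1.01 ± 0.11 in subpolysomes (adjusted p = 1.6e-07), close to that in total RNA. Cdkn1a was at 398, 396 and 478 CPM in KO polysomes, against 689, 702 and 756 CPM in WT polysomes (log2 -0.73 ± 0.13, adjusted p = 0.000378). In subpolysomes it was at 255, 268 and 285 CPM in KO libraries, against 351, 367 and 387 CPM in WT libraries (log2 -0.44 ± 0.10, adjusted p = 0.00274).

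Cdkn2c was at 13.49, 9.85 and 13.9 CPM in KO polysomes, against 5.91, 5.79 and 5.71 CPM in WT polysomes (log2 1.12 ± 0.16, adjusted p = 4.71e-05). In subpolysomes it was at 9.98, 8.43 and 10.7 CPM in KO libraries, against 3.53, 3.08 and 5.58 CPM in WT libraries (log2 1.27 ± 0.27, adjusted p = 0.000924). KO libraries were higher than WT libraries throughout. Ccne2 was at 2.95, 2.45 and 1.65 CPM in KO polysomes, against 1.25, 1.33 and 1.26 CPM in WT polysomes (log2 0.91 ± 0.26, adjusted p = 0.012), a call lost without polysome KO 1 (adjusted p = 0.0839). In subpolysomes Ccne2 was at 2.89, 4.43 and 3.96 CPM in KO libraries, against 2.29, 1.11 and 1.39 CPM in WT libraries (log2 1.24 ± 0.44, adjusted p = 0.0432). That call was lost without subpolysome KO 2, KO 3, WT 2 or WT 3 (adjusted p 0.110 to 0.157).

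The other members did not pass in either fraction. Ccnd2 in polysomes was at 336, 416 and 353 CPM in KO libraries, against 435, 477 and 481 CPM in WT libraries, lower without overlap but short of the threshold (log2 -0.30, 95% interval -0.58 to -0.02, adjusted p = 0.0991). With the replicate number as a block it passed (log2 -0.31, adjusted p = 0.0332). Same-numbered polysome KO and WT libraries had r of 0.186, 0.197 and 0.249 for deviations from their group mean. The labels do not say what a number shares, so this call is uncertain. Intervals of the remaining fold changes on the log2 scale ran from -0.43 to 0.14 for Ccnd1, -0.17 to 0.50 for Ccnd3, -0.07 to 0.59 for Ccne1 and -0.17 to 0.50 for Cdkn1b in polysomes. In subpolysomes they ran from -0.30 to 0.14 for Ccnd1, -0.36 to 0.08 for Ccnd2, -0.31 to 0.15 for Ccnd3, -0.86 to 0.42 for Ccne1 and -0.11 to 0.52 for Cdkn1b.

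**Figure D2:**
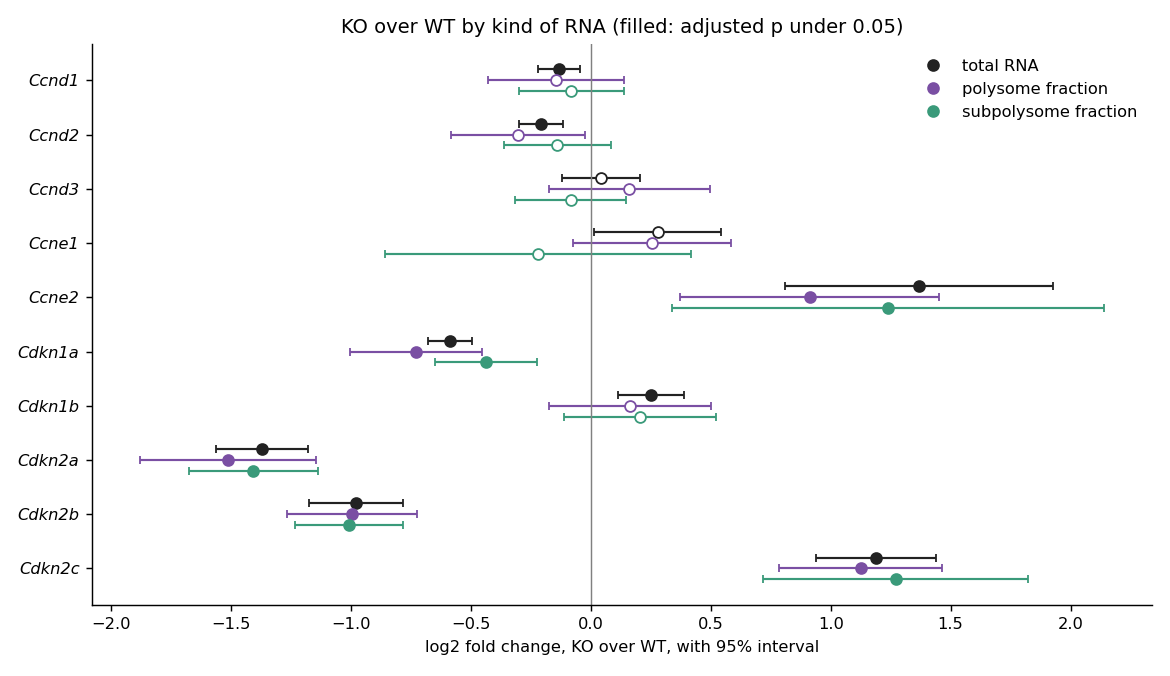
Log2 fold change of KO over WT (horizontal axis, with 95% intervals) for the 10 genes in total RNA, polysomes and subpolysomes of primary organoids; filled points passed an adjusted p of 0.05. Cdkn1a, Cdkn2a and Cdkn2b lie left of 0, and Ccne2 and Cdkn2c right of 0, in all 3 kinds of RNA.

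Most members were richer in polysomes than in subpolysomes, relative to the median mRNA, in both genotypes. In KO and in WT organoids alike, 7 members were higher in polysomes (Ccnd1, Ccnd2, Ccne1, Cdkn1a, Cdkn1b, Cdkn2a and Cdkn2b) and 0 were lower, while Ccnd3, Ccne2 and Cdkn2c did not pass. The fractions did not overlap for these 7 members in KO and for 8 in WT, Cdkn2c being the eighth, beside 60.5% of 14662 genes in KO and 64.8% in WT. Of 13392 genes, 61.6% were called in KO, 31.7% as higher in polysomes and 29.9% as lower, and 63.7% in WT, 32.8% as higher and 30.9% as lower. The TMM factors centre each fraction on its median mRNA. With library totals in place of TMM factors the median gene was 0.89 higher in KO polysomes and 0.84 higher in WT polysomes on the log2 scale. The genes called higher and lower were then 8207 and 1350 in KO, beside 4240 and 4005 with TMM, and 7954 and 1616 in WT, beside 4397 and 4132. All members of this comparison are therefore given relative to the median mRNA.

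Cdkn2a had the highest such ratio of the 10, with log2 polysome over subpolysome of 1.65 ± 0.18 in KO and 1.74 ± 0.18 in WT organoids (SE, adjusted p = 6.73e-08 in KO and 2.54e-08 in WT). Its polysome level was 2.86, 2.67 and 4.23 times its subpolysome level in the same-numbered KO libraries and 3.46, 3.07 and 3.87 times in the WT ones. That placed it at the 96.3 percentile of 11208 genes in KO and the 96.6 percentile of 11123 genes in WT. Ccnd1 followed with 1.49 ± 0.12 in KO and 1.54 ± 0.12 in WT, from 1178, 1377 and 1261 CPM in KO polysomes beside 467, 449 and 409 CPM in KO subpolysomes. In WT, Ccnd1 was at 1360.0, 1392 and 1552 CPM in polysomes and 466, 461 and 491 CPM in subpolysomes. Polysome libraries lay above subpolysome libraries throughout, and Ccnd1 was at the 94.4 percentile of genes in KO and the 94.2 percentile in WT. Cdkn2b was at 1.34 ± 0.12 in KO and 1.31 ± 0.11 in WT, Ccnd2 at 1.29 ± 0.12 in KO and 1.45 ± 0.12 in WT, and Cdkn1b at 1.09 ± 0.17 in KO and 1.13 ± 0.17 in WT. Ccne1 was at 1.36 ± 0.19 in KO and 0.87 ± 0.19 in WT, and Cdkn1a at 0.62 ± 0.12 in KO and 0.89 ± 0.12 in WT.

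Ccnd3 and Ccne2 did not pass in edgeR in either genotype, unlike the other cyclins listed, and genes were not tested against each other. Ccnd3, a D-type cyclin like Ccnd1, was at 64.1, 60.1 and 89.8 CPM in KO polysomes and 67.5, 63.7 and 68.7 CPM in KO subpolysomes. In WT it was at 61.2, 56.3 and 77.2 CPM in polysomes and 69.2, 78.7 and 66.0 CPM in subpolysomes, so the fractions overlapped in both genotypes (log2 0.06 ± 0.15 in KO and -0.20 ± 0.15 in WT). Ccne2 had ratios below the median mRNA, -0.71 ± 0.33 in KO (adjusted p = 0.0704) and -0.39 ± 0.35 in WT (adjusted p = 0.337), with overlapping libraries. The KO value passed in DESeq2 (adjusted p = 0.0439) and without subpolysome KO 1 (adjusted p = 0.046). Without subpolysome WT 1 the WT value was 0.0063. With library totals alone Ccne2 turned to 0.18 in KO and 0.41 in WT, and Ccnd3 in WT to 0.62, while Ccnd3 in KO became 0.94. Cdkn2c was at 0.32 ± 0.21 in KO and 0.45 ± 0.22 in WT (adjusted p = 0.191 in KO and 0.076 in WT). Its WT value passed without subpolysome WT 3 (log2 0.79, adjusted p = 0.00391) and without subpolysome KO 2 (adjusted p = 0.0487). It also passed in the fit on 18 libraries (adjusted p = 0.0291) and with the replicate number within genotype as a block (log2 0.49, adjusted p = 0.031).

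**Figure D3:**
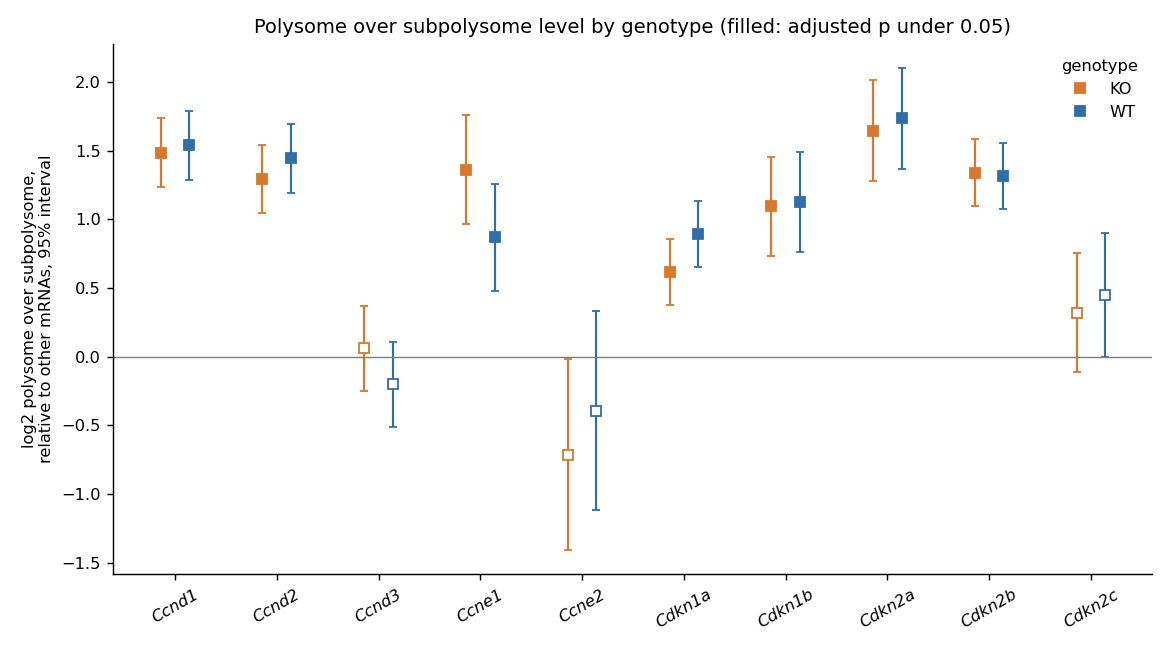
Log2 polysome over subpolysome level (vertical axis, with 95% intervals), relative to the median mRNA, for the 10 genes in KO and WT organoids; filled squares passed an adjusted p of 0.05. Cdkn2a and Ccnd1 are the highest of the 10 in WT and Cdkn2a, Ccnd1 and Ccne1 in KO, and Ccne2 is the lowest in both; Ccnd3 lies near 0.

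The polysome loading of the members was then compared between genotypes as the interaction of genotype and fraction. None of the 10 passed for the polysome to subpolysome ratio in edgeR, and none had an unadjusted p below 0.05; of all 13392 genes 0.00747% were called, a single gene. The members' differences, KO minus WT on the log2 scale, ran from -0.32 for Ccne2 (95% interval -1.32 to 0.68) to 0.49 for Ccne1 (-0.06 to 1.04). For Cdkn2a the difference was -0.09 (-0.60 to 0.42), for Cdkn2b 0.03 (-0.31 to 0.36) and for Cdkn1a -0.28 (-0.62 to 0.06). For the D-type cyclins it was -0.05 (-0.40 to 0.30) for Ccnd1, -0.15 (-0.50 to 0.20) for Ccnd2 and 0.26 (-0.18 to 0.70) for Ccnd3.

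Polysome over total RNA gave the same count: 0 of 10 members and 0 of 13507 genes passed in edgeR, with 263 genes but no member at an unadjusted p below 0.05, and DESeq2 also called 0 genes. The members' differences lay between -0.43 for Ccne2 (95% interval -1.21 to 0.34) and 0.15 for Ccnd3 (-0.27 to 0.57). Cdkn2a was at -0.11 (-0.58 to 0.36), Cdkn2b at 0.01 (-0.32 to 0.34) and Cdkn2c at -0.04 (-0.46 to 0.38).

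Per kb of exon, Ccnd1 made up most of the D-type cyclin RNA in every library. All shares here depend on the union length of each gene, which may set those of Ccnd2 and Ccnd3 too low. Its share in total RNA was 85.7 ± 0.295% in KO and 85.5 ± 0.308% in WT (SD, n = 3 each), and in the cancer set 78.5 and 74.4% in the libraries labelled KO and 77.4 and 73.5% in those labelled WT. Ccnd3 held 2.58 ± 0.629% of the family in KO polysomes, beside 6.51 ± 0.497% in KO subpolysomes, and 2.04 ± 0.220% in WT polysomes, beside 6.46 ± 0.646% in WT subpolysomes. The libraries of the fractions did not overlap in this share. Of the summed level of Cdkn2a, Cdkn2b and Cdkn2c, which leaves out the INK4 gene Cdkn2d, Cdkn2c held 3.33 ± 0.748% in KO total RNA and 0.665 ± 0.101% in WT total RNA. Cdkn2a held 54.3 ± 3.33% in KO polysomes and 63.8 ± 2.82% in WT polysomes, against 38.9 ± 1.61% in KO total RNA and 46.7 ± 1.19% in WT total RNA. Of the summed level of Cdkn1a and Cdkn1b, without Cdkn1c, Cdkn1b held 12.3 ± 0.656% in KO total RNA and 7.26 ± 0.546% in WT total RNA. The shares were not tested.

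**Figure D4:**
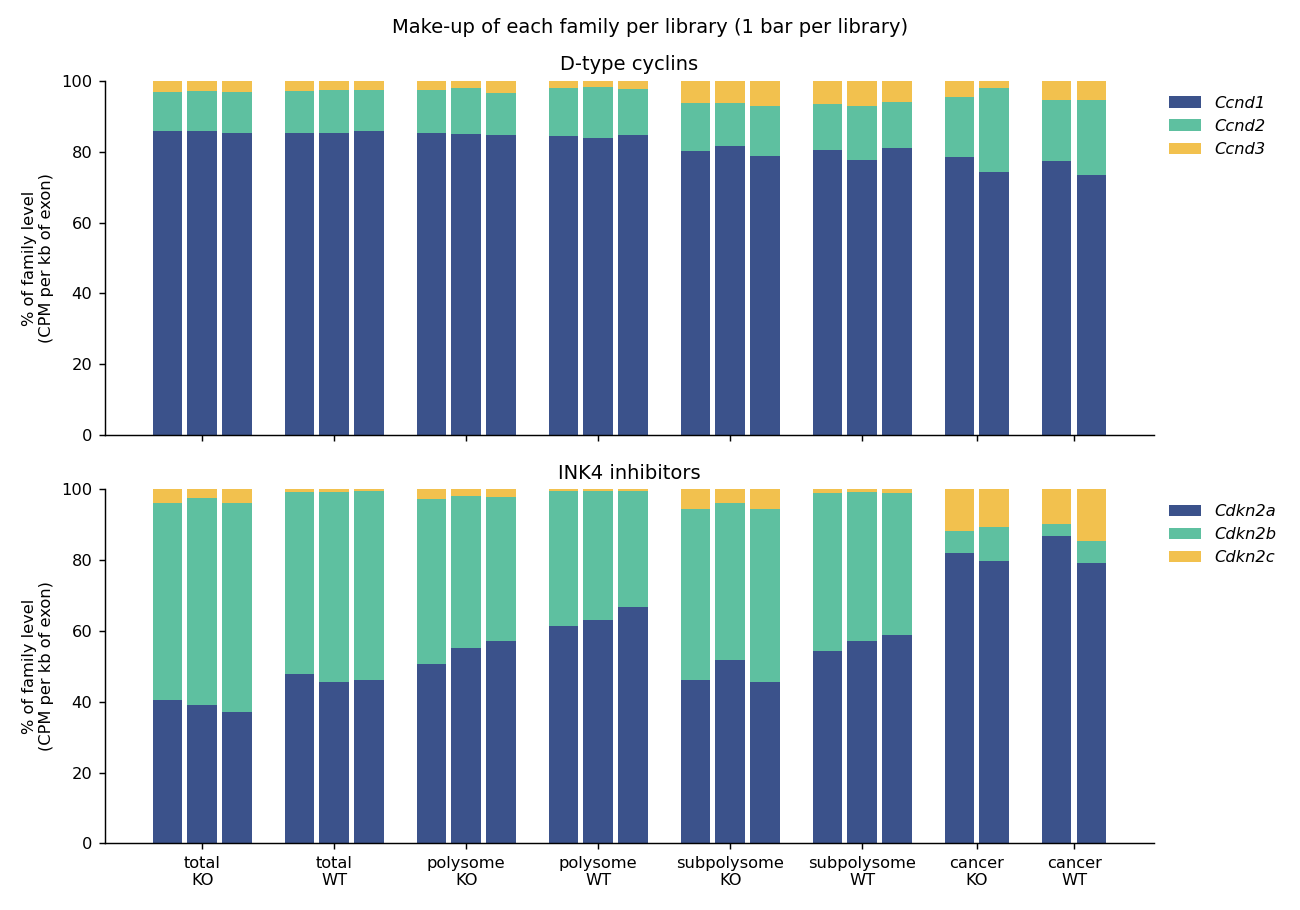
Share of each gene in the summed level of its family, in percent of CPM per kb of exon, with 1 bar per library, for the D-type cyclins (top) and the INK4 genes Cdkn2a, Cdkn2b and Cdkn2c (bottom, without Cdkn2d). Ccnd1 fills 73.5 to 85.95% of the D-type bars, and in the cancer libraries Cdkn2a fills 79.3 to 86.7% of the lower bars.

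The cancer organoids were compared as labelled. Arid1a itself was at 174 and 56.3 CPM in libraries labelled KO and 66.5 and 196 CPM in those labelled WT. Its log2 fold change was -0.18 ± 0.79. The labels thus did not separate Arid1a levels, so this comparison cannot tell whether the primary genotype pattern occurs in cancer organoids. Of the 10 members 0 passed in edgeR, as did 0 of 12681 genes (0%), with 96 genes at an unadjusted p below 0.05; DESeq2 called 7 genes higher and 3 lower, none of them a member. The groups did not overlap for 3 members, Ccnd1 and Cdkn2b (higher in the libraries labelled KO) and Cdkn1b (lower), beside 20.7% of 14662 genes. Cdkn2a was at 131 and 81.4 CPM in the libraries labelled KO, against 151 and 112 CPM in those labelled WT (log2 -0.30, 95% interval -1.16 to 0.57). Cdkn2b was at 11.6 and 11.7 CPM in the libraries labelled KO, against 7.46 and 10.2 CPM in those labelled WT (0.40, -0.41 to 1.21), and Cdkn2c at 43.2 and 25.0 CPM, against 38.7 and 47.2 CPM (-0.33, -1.23 to 0.58). The libraries of the 2 labels overlapped for Cdkn2a and Cdkn2c, and 2 libraries a side leave wide intervals. The remaining log2 values were -0.08 (-1.01 to 0.84) for Cdkn1a, -0.39 (-0.83 to 0.05) for Cdkn1b, -0.13 (-0.80 to 0.55) for Ccne1 and -0.03 (-0.66 to 0.60) for Ccne2.

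The library labelled KO 2 had the highest Ccnd1 and Ccnd2 levels of the cancer set and the lowest Ccnd3 level. Ccnd1 was at 720.1 and 1063 CPM in the libraries labelled KO, against 574 and 607 CPM in those labelled WT (log2 0.60, 95% interval -0.06 to 1.27). Ccnd2 was at 312 and 673 CPM in the libraries labelled KO, against 254 and 347 CPM in those labelled WT (0.72, -0.50 to 1.95). Without KO 2, the log2 values were 0.29 for Ccnd1 and 0.06 for Ccnd2. Ccnd3 was at 76.2 and 54.5 CPM in those labelled KO, against 75.4 and 83.7 CPM in those labelled WT.

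Set against primary organoids, cancer organoids had more RNA of the E-type cyclins and Cdkn2c and far less of Cdkn1a and Cdkn2b. In total RNA, 5 members were higher in the 4 cancer libraries than in the 6 primary ones (Ccne1, Ccne2, Cdkn1b, Cdkn2a and Cdkn2c), 3 were lower (Ccnd1, Cdkn1a and Cdkn2b) and 2 did not pass. Of 14305 genes 77.8% were called, 38.8% higher and 39.0% lower, so calls were common, and the size of a difference says more than the call. The libraries did not overlap for 5 members (Ccne1, Ccne2, Cdkn1a, Cdkn2b and Cdkn2c), beside 63.2% of 14662 genes. The labels name no batch and each library has 1 origin, so any batch or processing difference between the sets cannot be told apart from the origin of the cells.

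Ccne2 ranged from 24.5 to 32.3 CPM in cancer libraries (median 27.7), against 0.532 to 2.08 CPM in primary ones (median 1.32), 24.5-fold higher in cancer (log2 4.62 ± 0.20, adjusted p = 2.55e-07). Ints8, which overlaps it on the opposite strand, was at 84.6 and 88.6 CPM in the cancer groups labelled KO and WT, beside 39.7 CPM in primary KO and 49.3 CPM in primary WT. Ccne1 ranged from 24.2 to 34.4 CPM (median 31.5) in cancer, against 6.08 to 8.91 CPM (median 6.62) in primary libraries (log2 2.10 ± 0.13, 4.29-fold higher). Cdkn2c ranged from 25.0 to 47.2 CPM (median 41.0) in cancer, against 3.94 to 10.7 CPM (median 6.56) in primary libraries (log2 2.56 ± 0.16, 5.88-fold higher). These 3 genes lay well above every primary library.

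Cdkn2b ranged from 7.46 to 11.7 CPM (median 10.9) in cancer, against 81.0 to 188 CPM (median 132) in primary libraries, 12.5-fold lower in cancer (log2 -3.64 ± 0.13, adjusted p = 9.45e-08). Cdkn1a ranged from 26.6 to 45.1 CPM (median 38.2) in cancer, against 304 to 502 CPM (median 393) in primary libraries, 10.5-fold lower (log2 -3.40 ± 0.17, adjusted p = 4.22e-07). The neighbour of Cdkn2b, Cdkn2a, did not share this: it ranged from 81.4 to 151 CPM in cancer and 43.2 to 138 CPM in primary libraries, overlapping (log2 0.52 ± 0.15, adjusted p = 0.0132). That call was lost without the library labelled WT 1 (log2 0.40, adjusted p = 0.0538). Cdkn1b ranged from 52.2 to 77.9 CPM in cancer, against 45.6 to 58.7 CPM in primary libraries (log2 0.30 ± 0.07, adjusted p = 0.0051). Of the summed level of Cdkn1a and Cdkn1b per kb, Cdkn1b made up 55.5 ± 6.98% and 60.2 ± 2.64% in the cancer groups labelled KO and WT (SD, n = 2 each), the larger share there, unlike in the primary libraries. Cdkn1c, the CIP/KIP gene outside this sum, was at 0.339 and 34.8 CPM in the libraries labelled KO and 17.1 and 0.165 CPM in those labelled WT.

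Among the D-type cyclins, Ccnd1 ranged from 574 to 1063 CPM in cancer, against 946 to 1123 CPM in primary libraries (log2 -0.53 ± 0.10, adjusted p = 0.00148). Only KO 2 of the cancer libraries reached the primary range, and without it the value was -0.69. Ccnd2 ranged from 254 to 673 CPM in cancer and 257 to 323 CPM in primary libraries (log2 0.44 ± 0.19, adjusted p = 0.0663). It passed without KO 1 (log2 0.66, adjusted p = 0.000396), without WT 1 (0.54, adjusted p = 0.05) and in DESeq2 (adjusted p = 0.0419), and was at 0.11 without KO 2 (adjusted p = 0.326). Ccnd3 ranged from 54.5 to 83.7 CPM in cancer and 59.4 to 72.0 CPM in primary libraries, and passed only without KO 2 (log2 0.27, adjusted p = 0.019). Beside these differences, Mki67 ranged from 742 to 820.4 CPM in cancer, against 8.56 to 43.5 CPM in primary libraries (log2 5.29 ± 0.24). Summed urothelial markers, mostly Krt5 and Krt14, were at 12800 to 15430 and 10780 to 16070 CPM in the cancer groups labelled KO and WT. These sums overlapped the primary range. Within them Krt8 was at 0.265 and 4.29 CPM in the cancer groups labelled KO and WT, beside 297 CPM in primary KO and 135 CPM in primary WT, while Trp63 was at 667 and 636 CPM, beside 305 CPM in primary KO and 215 CPM in primary WT. The part of these in the results was not tested.

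**Figure D5:**
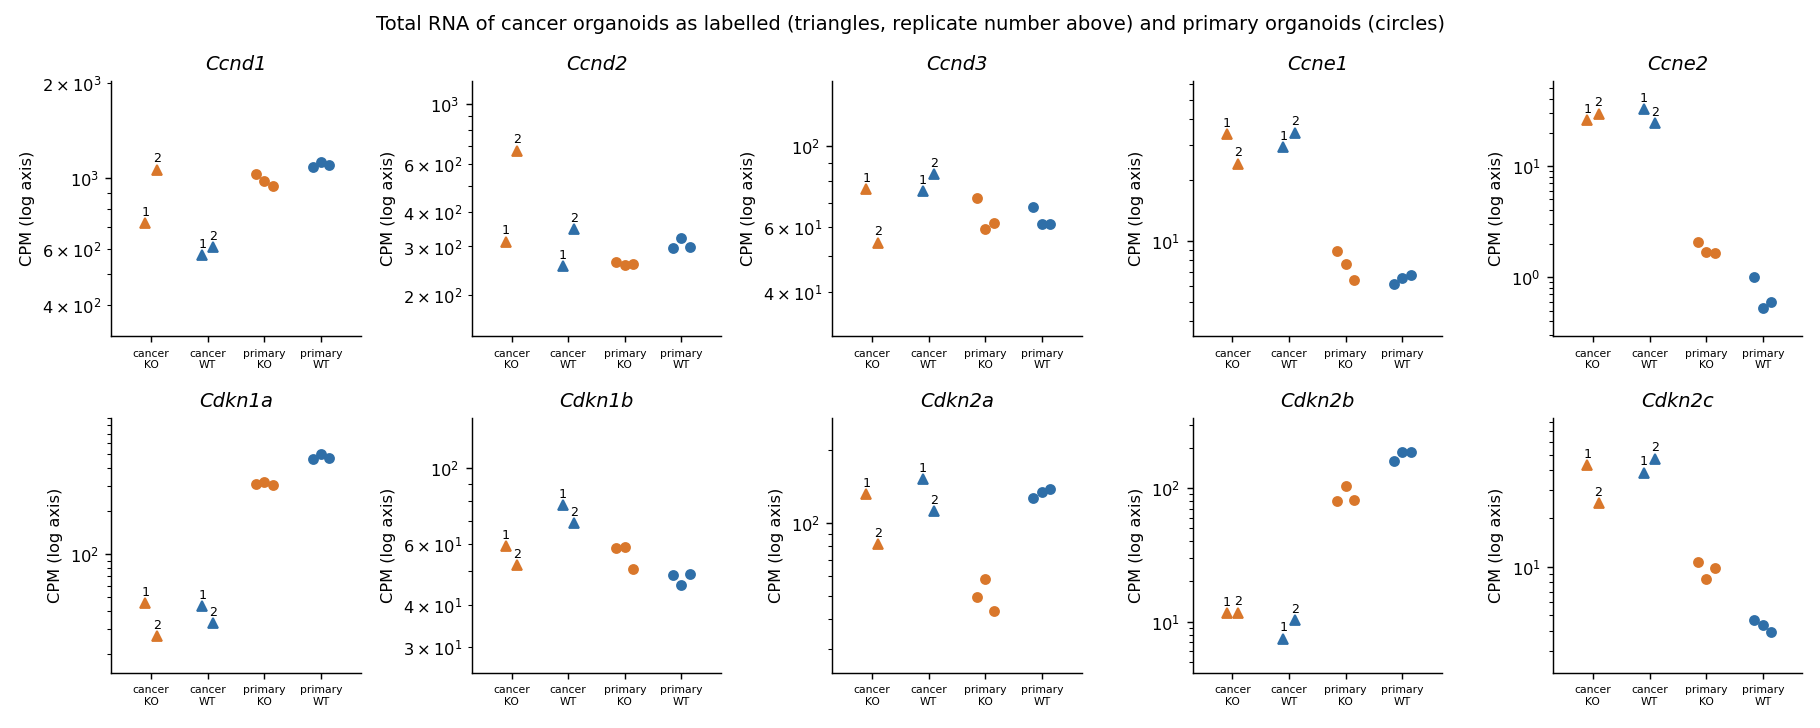
Total RNA levels of the 10 genes in TMM-scaled CPM on log axes, with cancer libraries as triangles (as labelled, replicate number above) and primary libraries as circles. Cdkn1a and Cdkn2b are lower, and Ccne1, Ccne2 and Cdkn2c higher, in all 4 cancer libraries than in all 6 primary ones, and the library labelled KO 2 has the highest Ccnd1 and Ccnd2 of the cancer set.

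The KO effect as labelled in cancer was compared with that in primary organoids as an interaction over 10 total RNA libraries. Cdkn2b passed with a log2 difference of 1.36 ± 0.22 (adjusted p = 0.0247), from 0.40 in cancer and -0.98 in primary organoids. Cdkn2c passed with -1.54 ± 0.32 (adjusted p = 0.0467), from -0.33 in cancer and 1.19 in primary organoids. Of 14305 genes 3.13% were called, 1.53% as higher and 1.6% as lower. Both calls rest on the cancer labels, which the Arid1a levels of 2 libraries go against. The Cdkn2b call was lost without total KO 1, KO 3, WT 2 or WT 3 (adjusted p 0.0808 to 0.0851), and the Cdkn2c call when any of the 6 primary libraries was left out (0.0806 to 0.131) and with no filter on low counts (0.0588).

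Other genes of the pathway were taken from 6 lists, chosen with earlier results of these data known, so their counts are only a description. The genes named are those with the smallest p in total RNA itself. The total RNA counts stand beside 53.2% of all genes called, 27.0% higher and 26.3% lower. In total RNA, the later cyclins were higher in KO in 4 of 4 tested (of 5 listed): Ccna2, a cyclin of S phase and G2, had a log2 fold change of 1.88 ± 0.21, from 35.4, 22.3 and 26.6 CPM in KO and 10.6, 6.65 and 6.03 CPM in WT libraries. Ccnb2 and Ccnb1, cyclins of mitosis, were at 1.77 ± 0.21 and 1.72 ± 0.26, and Ccnf at 0.65 ± 0.14. The other inhibitors were higher in 3 of 3: Cdkn1c, which encodes p57, at 2.17 ± 0.12, Cdkn3, a phosphatase of CDKs, at 1.97 ± 0.19 and Cdkn2d, which encodes p19Ink4d, at 0.88 ± 0.14. Cdkn2d and Cdkn2c, 2 INK4 genes, thus rose while Cdkn2a and Cdkn2b fell. Of 13 pocket protein and E2F genes 7 were higher and 1 lower, with the repressors E2f7 and E2f8 at 2.08 ± 0.21 and 1.03 ± 0.09, the activator E2f1 at 0.84 ± 0.16 and E2f3 at -0.35 ± 0.07. Of 8 kinases and activators 2 were higher and 3 lower, among them Cdk4, the partner of D-type cyclins, at -0.33 ± 0.04 and Cdk2, the partner of E-type cyclins, at 0.35 ± 0.06, with Cdc37 at -0.25 ± 0.04 and Mnat1 at 0.19 ± 0.06.

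Of 13 measured genes of cyclin and inhibitor turnover 4 were higher and 2 lower in KO total RNA, with shifts of at most 0.39 on the log2 scale among the named ones. These were Usp28 at 0.39 ± 0.07, Cks1b at 0.25 ± 0.05, Gsk3b at 0.20 ± 0.05 and the SCF subunit Skp1a at -0.25 ± 0.05. Of 25 regulators of the members' transcription 6 were higher and 9 lower, so neither list stood far from the share of all genes called: the AP-1 factor Jun was at -0.65 ± 0.07, the TGF-beta effector Smad3 at -0.62 ± 0.05 and the p53 ligase Mdm2, itself a p53 target, at -0.49 ± 0.06, while Klf4 was at 0.91 ± 0.08. Median log2 fold changes were 1.75 for later cyclins, 1.97 for other inhibitors, 0.22 for pocket proteins and E2F, 0.09 for turnover, 3.6e-05 for kinases and -0.08 for regulators, beside 0.0026 over all genes tested. In polysomes the later cyclins and other inhibitors were again called higher in 4 of 4 and 3 of 3, and likewise in subpolysomes. The remaining lists had 0 of 8 kinases, 3 of 13 pocket proteins and E2F, 1 of 13 turnover genes and 8 of 25 regulators called in polysomes in either direction, beside 28.8% of all genes. In subpolysomes they had 1 of 8 kinases, 2 of 13 pocket proteins and E2F, 1 of 13 turnover genes and 5 of 25 regulators, beside 22% of all genes, and the kinase was Cdk4, lower in KO (log2 -0.44 ± 0.11, adjusted p = 0.00554).

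The same lists were set between cancer and primary organoids, where 77.8% of all genes were called, 38.8% higher and 39.0% lower. There the later cyclins were higher in cancer in 4 of 4 (Ccnb1 at log2 4.82 ± 0.25 and Ccna2 at 3.94 ± 0.19). Of 13 pocket protein and E2F genes 9 were higher and 2 lower, with E2f7 at 5.39 ± 0.20. Taken in either direction that count was near 77.8%, but more of these genes were higher than lower. Of 25 regulators 9 were higher and 11 lower. Jun was at -2.31 ± 0.15, Smad3 at -2.41 ± 0.06, Mdm2 at -1.13 ± 0.09 and Klf4 at -0.48 ± 0.48 (adjusted p = 0.386). Of 8 kinases and activators 4 were higher and 2 lower. Cdk2 was at 1.14 ± 0.06, Cdk4 at -0.06 ± 0.04 (adjusted p = 0.232), Cdc37 at -0.56 ± 0.07 and Mnat1 at -0.43 ± 0.13. Of 13 turnover genes 6 were higher and 4 lower, and of 3 other inhibitors 2 were higher and 0 lower. The primary libraries are part of this comparison and of the one between genotypes.

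Over the 18 primary libraries, the genes with levels most like those of the members were found by Pearson's r of log2 CPM, as a description over libraries that share fraction, depth and genotype. Cdkn1a and Cdkn2a had the same gene as their nearest, Eva1a, with r of 0.986 for Cdkn1a and 0.988 for Cdkn2a among 10121 genes, and both had Arhgdib in their first 3. Cdkn2b was most like Sec14l2 (r = 0.987), Ccnd1 like Prkar1a (0.992) and Ccnd2 like Rell1 (0.992). Cdkn2c was most like Tcf19 (0.9747), Ccne1 like Commd10 (0.959), Cdkn1b like Dhx40 (0.960) and Ccne2 like Serpinb10 (0.898). Ccnd3 had no close partner, its nearest being Serinc2 (0.751). Within the 6 total RNA libraries the nearest were Ube2c for Ccne2 (0.998), Net1 for Cdkn2c (0.9996), Oxr1 for Cdkn2a (0.999), Clu for Cdkn2b (0.999) and Bid for Cdkn1a (0.9995).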

How the data were processed

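RNA of mouse bladder organoids was sequenced in 22 libraries: total, polysome and subpolysome RNA of primary urothelial organoids, and total RNA of bladder cancer organoids. The deposited values are raw read counts per gene, which the authors made with HTSeq on mm10, per the submitters' processing notes; Bowtie is also named for the 18 primary libraries. Tool versions, the annotation, the strand setting and the cancer libraries' aligner were not given in the sources used here. Without strand, reads over bases shared with a gene on the opposite strand cannot be assigned to a single gene. Whether such reads were counted or left out is not known here. Each file held 24421 genes and 0 rows that name no gene, and no 2 libraries of a group agreed within sampling noise (chi-square over degrees of freedom 11.9 to 247).

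Counts were tested with edgeR 4.0.16 (R 4.3.3): filterByExpr, TMM factors, the quasi-likelihood test and Benjamini-Hochberg adjustment over all genes tested, called at an adjusted p of 0.05. All adjusted p-values in the text are of this test unless another is named, and the SE is the absolute log2 value divided by the root of the F statistic. Levels are CPM scaled by TMM factors over the 22 libraries, and intervals are at 95%. KO and WT were compared in each kind of RNA, polysomes with subpolysomes in each genotype, both ratios between genotypes, and cancer with primary total RNA. The scripts were tested on simulated data. Alternatives were DESeq2 1.42.0, its size factors, library totals, no filter, a replicate block, fits on more libraries and leaving out each library. Exons came from GENCODE M21 (GRCm38) and promoters from RefSeq (GRCm38.p6).

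All 10 members are named throughout. Named pathway genes are the 4 tested genes of each list with the smallest p in KO against WT total RNA, and genes of like pattern are those with the highest Pearson's r among genes of an average log2 CPM of at least 2. The members and lists were chosen with earlier results of these data known. Same-numbered polysome KO and WT libraries deviated together (r of 0.186, 0.197 and 0.249), so the block value is given there. Same-numbered polysome and subpolysome libraries had r of 0.0726, 0.0626 and 0.13 in KO and 0.193, 0.0641 and 0.0932 in WT. For polysome and total RNA r was 0.101, 0.175 and 0.0472 in KO and 0.208, 0.0616 and 0.108 in WT. The main tests used no block. The numbers come from the labels, which do not say what they share.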

Additional observations from a re-analysis of the deposited data

Results flagged for a closer look

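The KO effect as labelled in cancer organoids differed from that in primary organoids for Cdkn2b, with a log2 difference of 1.36 (edgeR interaction, adjusted p = 0.0247), and for Cdkn2c, with -1.54 (adjusted p = 0.0467). Cdkn2b missed the threshold without total KO 1, KO 3, WT 2 or WT 3 and with the replicate block (adjusted p = 0.0587), and Cdkn2c without any of the 6 primary libraries, with no filter (0.0588) and with the block (0.137). Both also rest on cancer labels that Arid1a levels of 2 libraries go against. Cdkn2b was also higher in both cancer libraries labelled KO than in those labelled WT (log2 0.40), whereas it was lower in all KO than in all WT polysome libraries (log2 -0.996) and in all KO than in all WT subpolysome libraries (log2 -1.01). The difference of these last pairs was not tested.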

How the results depend on the processing

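Of 1480 alternative values for single members, 1359 kept their direction and side of the threshold, 24 lost a call, 30 gained one and 67 turned sign. In the fit on 18 libraries 3 members were lower in KO total RNA. With library totals 1 member was higher in KO subpolysomes, and polysome over subpolysome turned to 0.18 (KO) and 0.41 (WT) for Ccne2 and 0.62 (WT) for Ccnd3. DESeq2 called 1 member lower in KO polysomes than in KO subpolysomes. The polysome to subpolysome difference turned to 0.0091 for Ccnd1 and 0.035 for Cdkn1b with library totals and to 0.012 for Cdkn1b with the replicate block. The polysome to total difference turned to -0.0098 for Ccnd1 and -0.013 for Cdkn2b in the fit on 18 libraries, and for Ccne1 to -0.0087 with DESeq2, -0.0086 with its size factors, -0.020 in the fit on 18 libraries and -0.0010 with library totals. For the KO effect in cancer minus primary, members called higher were 3 in DESeq2 and 0 with the block, and lower 3 in DESeq2, 0 without a filter, 0 with the block and 2 with library totals.

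Leaving out 1 library gave these ranges. Cancer as labelled: Ccne1 -0.39 to 0.092, Ccne2 -0.21 to 0.19, Cdkn1a -0.52 to 0.24, Cdkn2a -0.69 to 0.00025, Cdkn2c -0.78 to 0.011. KO against WT: Ccnd3 -0.046 to 0.10 in total RNA and -0.018 to 0.29 in polysomes, with 1 to 2 members higher in polysomes and 1 to 2 in subpolysomes. Polysome to subpolysome difference: Ccnd1 -0.13 to 0.011, Cdkn1b -0.23 to 0.18, Cdkn2a -0.27 to 0.11, Cdkn2b -0.058 to 0.11, Cdkn2c -0.45 to 0.015. Polysome to total difference: Ccnd1 -0.057 to 0.067, Ccnd3 -0.052 to 0.28, Ccne1 -0.11 to 0.13, Cdkn1b -0.18 to 0.14, Cdkn2a -0.28 to 0.072, Cdkn2b -0.066 to 0.14, Cdkn2c -0.13 to 0.091. Polysome over subpolysome: Ccnd3 -0.14 to 0.18 and 0 to 1 members lower in KO, Ccne2 -0.55 to 0.0063 in WT. Cancer minus primary KO effect: 0 to 4 members higher and 0 to 3 lower.

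Over all genes, total RNA calls were 1770 higher and 2014 lower in the fit on 18 libraries, beside 3557 and 3468, and subpolysome lower calls 2112, beside 1391. Polysome to subpolysome differences, 1 higher and 0 lower, were 9 and 3 in DESeq2, 10 and 19 without a filter, 6 and 6 with the block and 5 and 1 in the fit on 18 libraries. Cancer calls as labelled, 0 in edgeR, were 6 and 5 in the fit on 10 libraries. Cancer minus primary calls, 219 and 229, were 816 and 917 in DESeq2 and 102 and 99 with the block, and 40 to 1106 and 32 to 1270 without 1 library. Same-numbered KO and WT libraries did not all deviate together in total RNA (r of 0.145, 0.0368 and -0.0656). In subpolysomes their r was small but positive (0.0344, 0.0364 and 0.0694), beside -0.057 to 0.0138 for libraries of different numbers. With the block, Cdkn2c in WT polysomes over subpolysomes passed (adjusted p = 0.031), and Cdkn2b (0.0587) and Cdkn2c (0.137) missed in the cancer minus primary difference. In the cancer set, 2 libraries per group make deviations from the group mean mirror each other, so their r is a single value with a forced opposite. It was -0.429 for same-numbered libraries and 0.429 for crossed ones (KO 1 with WT 2 and KO 2 with WT 1). The crossed block called 0 members and 0 genes. The cause of these changes was not tested. Ccne2, with 42 to 190 counts per total RNA library, is the member that depth limits most.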
